A study of Mus musculus with 12 samples.

Results

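The 35 genes described here encode the subunits of the vacuolar proton pump (V-ATPase), proteins of the lysosomal membrane, and the transcription factors and scaffold that link this membrane to gene expression and growth signals. They were chosen by name, from mouse symbols matched to the Ensembl identifiers of the count files, out of 54838 genes in all, and all 35 passed the filter on low counts. RNA was sequenced from cell suspensions enriched for oligodendroglia on a Percoll gradient from the spinal cord of P60 mice, in 12 libraries that formed 4 groups of 3. Control mice, which the labels call wildtype, were Olig1+/+;Tet1fl/fl and Tet1 mutants were Olig1cre/+;Tet1fl/fl, so that all animals carried the floxed Tet1 allele and only the mutants carried the Cre knock-in at Olig1, which acts in the oligodendrocyte lineage. Tissue was either the demyelinated white matter at 4 days after injection of lysolecithin (4dpl), a detergent that strips myelin, or the unlesioned contralateral side. Which libraries came from the same mouse was not given, so the p-values measure the spread between these libraries.

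The V-ATPase is a rotary pump in which a cytosolic V1 sector hydrolyses ATP and a membrane-embedded V0 sector carries protons into the lysosome. The acid it makes activates the hydrolases that digest material taken up by the cell, and heavily glycosylated membrane proteins such as LAMP1 and LAMP2 shield the membrane from them. The transcription factors TFEB, TFE3 and MITF bind short E-box related motifs in the promoters of lysosomal genes, folliculin (Flcn) and the Ragulator scaffold set their activity through mTORC1 at the lysosome surface, and phagocytes that clear myelin debris after demyelination are rich in lysosomes.

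RefSeq promoters (GRCm38.p6), each with 250 bases before and 50 after the annotated start, were found for 29 of the 35 genes and searched on both strands for the E-box CACGTG, for the longer palindrome TCACGTGA that contains it, and for TCATGTGA. Some genes had several promoter entries, so shares are given per gene, counting any of its entries. CACGTG stood in 9 of these 29 genes (31.0%) and in 8.09% of all 27025 genes with an entry, or in 24.3% of the 37 entries of the members and 7.15% of all 32851 entries. TCACGTGA stood in 4 (13.8%, against 1.12% of all genes), namely Atp6v0d1, Atp6v0e, Atp6v1a and Mcoln1, and TCATGTGA in 3 (10.3%, against 1.15%), namely Atp6v0c, Lamtor1 and Lamtor2. Lamp1 held 4 copies of CACGTG, a number reached by 0.0244% of all promoter entries. Stretches of 100 bases are shown for members of the V0 sector, the V1 sector and the lysosomal membrane, and for Cd68, which held none of the motifs and had the highest difference after lesion in control. Capitals mark the motifs, and a match describes letters only.
Atp6v0d1, chr8:105566055-105566154, minus strand: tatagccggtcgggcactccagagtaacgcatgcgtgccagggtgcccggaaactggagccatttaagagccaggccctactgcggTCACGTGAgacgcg
Atp6v1a, chr16:44139330-44139429, minus strand: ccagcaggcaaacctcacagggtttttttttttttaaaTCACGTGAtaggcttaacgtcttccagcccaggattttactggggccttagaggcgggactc
Mcoln1, chr8:3500429-3500528, plus strand: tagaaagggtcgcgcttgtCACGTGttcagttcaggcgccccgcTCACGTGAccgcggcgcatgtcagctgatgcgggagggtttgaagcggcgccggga
Lamp1, chr8:13159071-13159170, plus strand: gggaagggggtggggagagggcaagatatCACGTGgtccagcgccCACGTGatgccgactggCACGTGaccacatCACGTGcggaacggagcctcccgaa
Cd68, chr11:69666161-69666260, minus strand: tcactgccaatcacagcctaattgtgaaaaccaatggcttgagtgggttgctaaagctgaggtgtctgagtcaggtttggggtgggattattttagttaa
The stretch of Atp6v1a lies between 170 and 71 bases before the start, and the others run from 90 bases before the start to 10 after it.

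Total counts were between 34805086 and 67251544 per library. The gene-level count of Tet1 did not separate the genotypes (exact permutation test of 3 against 3, two-sided p = 0.3 unlesioned and 0.5 at 4dpl, where the smallest possible is 0.1), and neither did that of Olig1 (p = 0.4 and 0.3). Per the study's methods, Cre removes an exon of Tet1, in OLIG1+ cells only. A gene-level count in suspensions that hold other cells too therefore cannot decide whether Tet1 was cut. "Mutant" below means the libraries labelled so. Microglial, oligodendrocyte, neutrophil and erythroid markers were present in every library, and the neutrophil list alone held 2.24% to 15.1% of the counts. A pair of libraries stood apart. Control unlesioned replicate 1 had Arg1, an enzyme of activated macrophages, at 407 CPM (CPM is the count as a share of the TMM-scaled library size) where the other control unlesioned libraries had 15.04 and 20.3, and it was the highest of its group for 29 of the 35 members. Mutant 4dpl replicate 3 had a summed level of 12 oligodendrocyte markers of 73084 CPM, where the other 11 libraries had 15133 to 35860.

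The first question was how these genes differ between the demyelinated tissue and unlesioned cord within each genotype. In control, 14 of the 35 members were called higher at 4dpl (edgeR quasi-likelihood test, p under 0.01 and Benjamini-Hochberg adjusted p under 0.05 over 31109 genes) and 0 lower, where 5.12% of all genes tested were called higher, 5.01% lower, and 14.7% of the 9673 genes with a mean of at least 10 CPM were called higher. The median log2 difference of the members was 0.75, where that of all genes was -0.36 and that of the genes of at least 10 CPM was 0.40. The 3 libraries at 4dpl lay above the 3 unlesioned ones for 27 members, as for 16.5% of all genes. The count rested on few libraries: it was 23 without control unlesioned replicate 1, 2 without control unlesioned replicate 3, 7 without mutant unlesioned replicate 3, and 0 without control unlesioned replicate 2, control 4dpl replicate 1 or control 4dpl replicate 2.

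In the mutant, 0 members were called, where 0.0225% of all genes were called higher and 0.113% lower, although 30 members had an unadjusted p under 0.05, all higher, and 25 had an adjusted p between 0.05 and 0.10. DESeq2 called 14. The median log2 difference was 0.72, where that of all genes was -0.18 and that of the genes of at least 10 CPM 0.54, and the 3 libraries at 4dpl lay above the 3 unlesioned ones for 28 members, as for 18.8% of all genes. Without control unlesioned replicate 1 the count in the mutant was 24, and without mutant unlesioned replicate 1 it was 11. Each of the 14 members called in control was also higher in the mutant, with adjusted p from 0.0522 to 0.0967. No member was called for a difference between the genotypes in its change after lesion (0 of 35, 0% of all genes called either way, and 0 by DESeq2), with an unadjusted p under 0.05 for 1 of the 35, Lamp1, and for 3.81% of all genes.

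**Figure D1:**
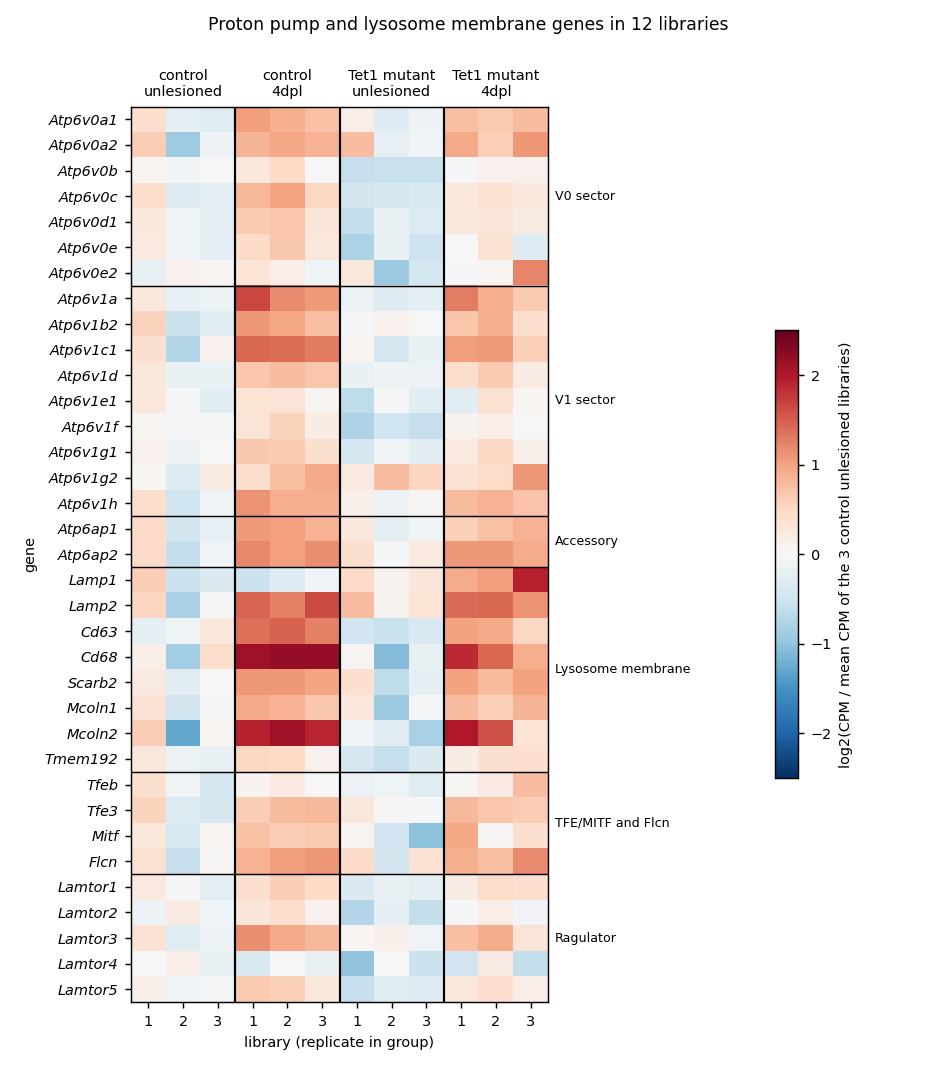
Heat map of the 35 genes (rows, grouped by role) in the 12 libraries (columns), as log2 of CPM over the mean CPM of the 3 control unlesioned libraries. Libraries at 4dpl are redder for most members in either genotype, Cd68 and Mcoln2 most of all, and Lamp1 is reddest in the mutant at 4dpl.

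Averaged over both genotypes, 26 of the 35 members were called higher at 4dpl and 0 lower, where 14.2% of all genes were called higher, 18.6% lower, and 40.9% of genes of at least 10 CPM higher. All 6 libraries at 4dpl lay above all 6 unlesioned ones for 15 members, as for 7.44% of all genes. The members not called were Atp6v0b, Atp6v0e, Atp6v0e2, Atp6v1e1, Atp6v1g2, Lamp1, Tfeb, Lamtor2 and Lamtor4. Each difference is one of levels in bulk RNA, in which fewer cells of a type and less RNA per cell cannot be told apart.

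**Figure D2:**
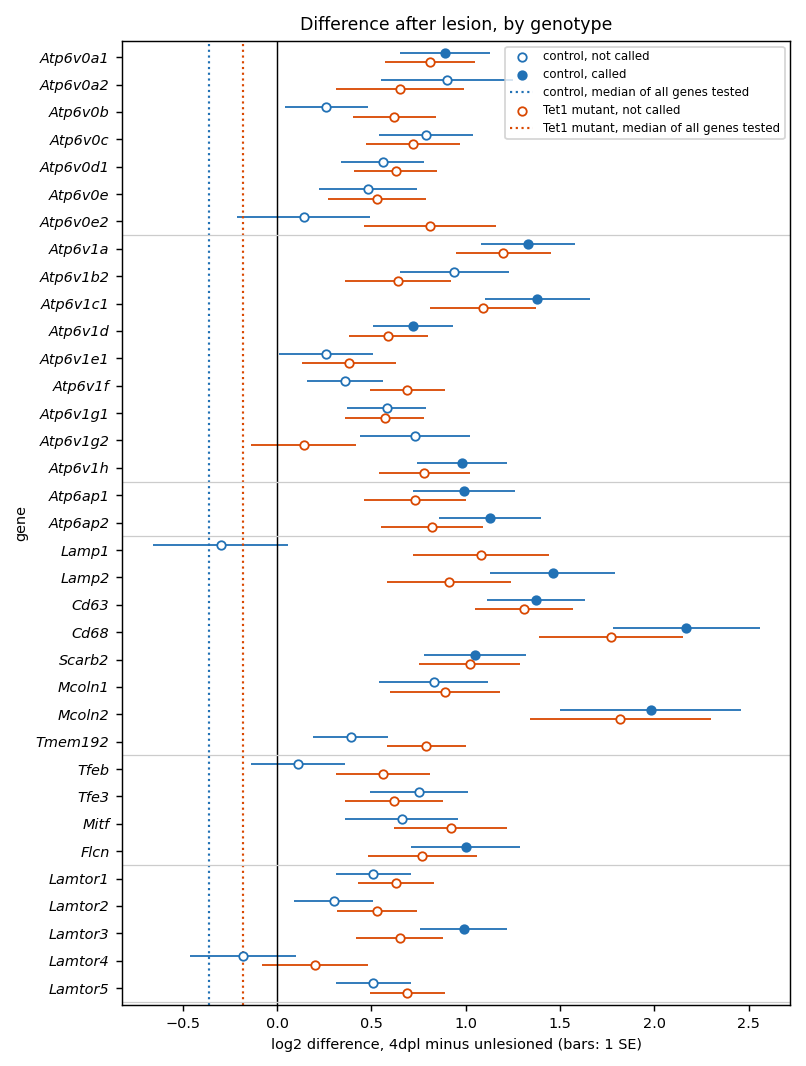
Log2 difference of 4dpl minus unlesioned for each gene (horizontal axis, bars of 1 standard error) in control (blue) and Tet1 mutant (orange), with filled points for called genes and dotted lines at the median of all genes tested, -0.36 and -0.18. Points lie right of 0 for 33 members in control and 35 in the mutant, where Atp6v1g2 turned to -0.01 with RLE scaling.

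The V0 sector is the membrane ring and its stator. Of its 7 genes, 1 was called in control (14.3%, against 5.12% of all genes and 14.7% of those of at least 10 CPM) and 4 in the average of both genotypes (57.1%, against 14.2% and 40.9%), with a median log2 difference of 0.56 in control and 0.65 in the mutant. Atp6v0a1 encodes an isoform of subunit a, which anchors the pump and lines the proton path. It stood at 152, 97.7 and 92.5 CPM in control unlesioned, at 234, 211 and 191 in control 4dpl, at 129, 91.8 and 105 in mutant unlesioned, and at 194, 181 and 196 in mutant 4dpl. All 6 libraries at 4dpl were above all 6 unlesioned ones. The log2 difference was 0.89 in control (SE 0.24, adjusted p = 0.040) and 0.81 in the mutant (SE 0.24, adjusted p = 0.0647).

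Atp6v0c, the main subunit of the rotating proteolipid ring, stood at 404, 239 and 250.2 CPM in control unlesioned and at 529, 589 and 428 in control 4dpl, and at 216, 222 and 229 against 356, 383 and 359 in the mutant. The groups did not overlap within a genotype, and the mutant libraries lay below the control libraries in either tissue. The log2 difference was 0.79 in control (SE 0.25, adjusted p = 0.057) and 0.72 in the mutant (SE 0.25, adjusted p = 0.0838), and the average of both was called (0.76, adjusted p = 0.00756). An annotated pseudogene, Atp6v0c-ps2, had 2.30% as many counts, and reads could be split between the copies.

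Atp6v0a2, another subunit a isoform, varied more among unlesioned libraries, with 123, 43.2 and 73.3 CPM in control and 136, 69.3 and 76.3 in the mutant. At 4dpl it stood at 144, 155 and 146 CPM in control and at 153, 120.03 and 170.1 in the mutant. The groups did not overlap in control (log2 difference 0.90, SE 0.35, adjusted p = 0.093) but did in the mutant (0.65, SE 0.34, adjusted p = 0.189). Atp6v0d1, the stalk subunit that couples the ring to V1, and Atp6v0e, a small subunit that sits beside subunit a, had log2 differences of 0.56 and 0.48 in control and 0.63 and 0.53 in the mutant. Of these, Atp6v0d1 was called in the average of both genotypes (0.60, adjusted p = 0.0105).

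Atp6v0b and Atp6v0e2 were the flattest of the sector in control. Atp6v0b, a second kind of ring proteolipid, stood at 374, 344 and 356 CPM unlesioned and 429, 504 and 354 at 4dpl in control, with overlap, and at 241, 244 and 245 unlesioned and 351, 385 and 386 at 4dpl in the mutant, without overlap. Its log2 difference was 0.26 in control (SE 0.22, adjusted p = 0.397) and 0.62 in the mutant (SE 0.22, adjusted p = 0.0847), and the difference between these was not called (adjusted p = 1). Atp6v0e2, an isoform of subunit e, had its highest value, 172 CPM, in mutant 4dpl replicate 3, the library with the high oligodendrocyte sum, and 39.2 to 92.8 CPM in the other 11 libraries.

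The V1 sector is the cytosolic ATPase. Of its 9 genes, 4 were called in control (44.4%, against the same 5.12% and 14.7%) and 7 in the average of both genotypes (77.8%, against 14.2% and 40.9%), with a median log2 difference of 0.73 in control and 0.64 in the mutant. Atp6v1a, the catalytic subunit A that binds ATP (chr16:44085402-44139705, minus strand), stood at 142, 101 and 107 CPM in control unlesioned, at 374, 266 and 243 in control 4dpl, at 105, 93.3 and 100.3 in mutant unlesioned, and at 282, 220.2 and 183 in mutant 4dpl. All 6 libraries at 4dpl were above all 6 unlesioned ones. The log2 difference was 1.33 in control (SE 0.25, adjusted p = 0.0256) and 1.2 in the mutant (SE 0.25, adjusted p = 0.0522).

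Atp6v1c1, subunit C, which clamps V1 onto V0 during assembly, had the largest log2 difference in control among the 16 subunit genes of the list. It stood at 144, 65.2 and 117 CPM unlesioned and 294, 287 and 267 at 4dpl in control, and at 114, 80.05 and 95.6 unlesioned and 224, 227 and 163 at 4dpl in the mutant. Again all libraries at 4dpl were above all unlesioned ones, with log2 differences of 1.38 (SE 0.28, adjusted p = 0.0256) and 1.09 (SE 0.28, adjusted p = 0.055). Atp6v1h, subunit H, a regulator that couples ATP hydrolysis to the membrane sector, stood at 93.2, 48.4 and 64.6 CPM unlesioned and 149, 129.6 and 129 at 4dpl in control, and at 75.1, 62.4 and 70.2 unlesioned and 119.6, 125 and 113 at 4dpl in the mutant. Unlesioned and 4dpl libraries did not overlap either, with log2 differences of 0.98 in control (SE 0.24, adjusted p = 0.034) and 0.78 in the mutant (SE 0.24, adjusted p = 0.0659).

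Atp6v1d, subunit D of the central rotor shaft, was the other called member, at 72.1 to 98.8 CPM in control unlesioned and 131 to 139 in control 4dpl (log2 difference 0.72, SE 0.21, adjusted p = 0.0445), and at 72.5 to 74.3 and 94.03 to 127 in the mutant (0.59, SE 0.21, adjusted p = 0.0838). Atp6v1b2, the partner of subunit A in the ATP-binding hexamer, had a log2 difference of 0.94 in control, at an adjusted p of 0.0509, and 0.64 in the mutant. The peripheral stalk genes Atp6v1e1 and Atp6v1g1 had log2 differences of 0.26 and 0.58 in control and 0.38 and 0.57 in the mutant, and of these Atp6v1g1 was called in the average of both genotypes (0.57, adjusted p = 0.0116). Atp6v1g2, the isoform of subunit G known from neurons, stood at 4.48 to 11.9 CPM in all libraries, and 144 of its 2510 exon bases overlap Nfkbil1 on the opposite strand, so its counts are uncertain where strand was not used.

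**Figure D3:**
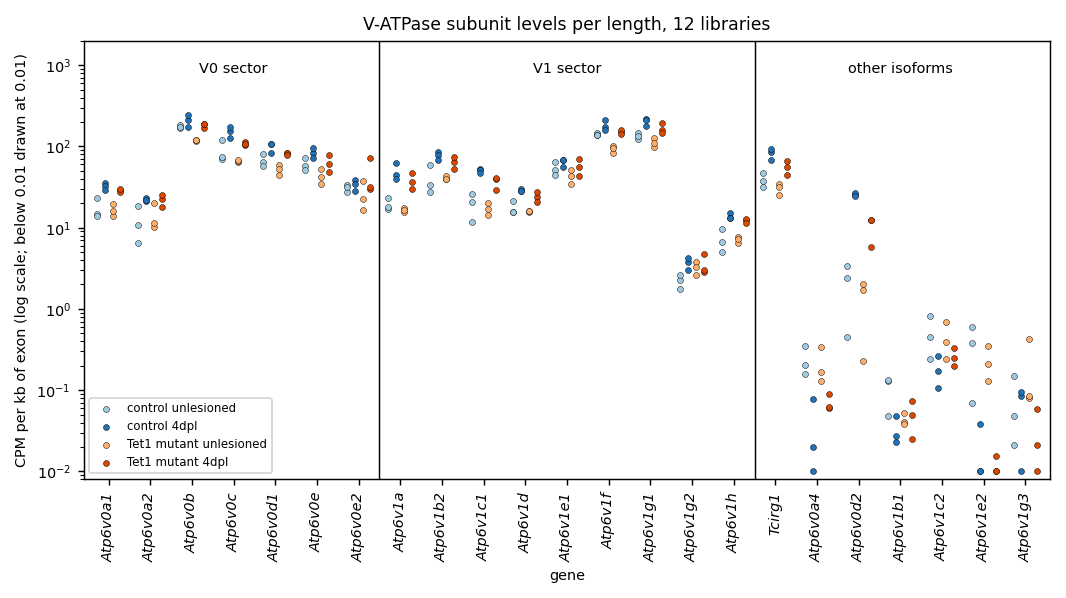
CPM per kilobase of exon (log axis) of the 16 V-ATPase members and 7 other isoform genes in each of the 12 libraries, coloured by group, with values below 0.01 drawn at 0.01. The members other than Atp6v1g2 lie between 4.97 and 246 in every library, and of the other isoforms Tcirg1 lies in that range and Atp6v0d2 enters it at 4dpl.

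Levels can be set in order across genes per kilobase of exon length. In control unlesioned, Atp6v0b (mean 175 CPM per kb), Atp6v1f (141), Atp6v1g1 (134) and Atp6v0c (88.0) were the highest of the 16 subunits, and Atp6v0a2 (11.9), Atp6v1h (7.05) and Atp6v1g2 (2.23) the lowest. Of the 15 neighbouring pairs in that order, 11 overlapped in their 3 libraries, and the pairs that lay apart were Atp6v0b above Atp6v1f, Atp6v1g1 above Atp6v0c, Atp6v0e2 above Atp6v1c1 and Atp6v1h above Atp6v1g2. In control 4dpl, Atp6v0b (209 CPM per kb), Atp6v1g1 (201) and Atp6v1f (181) were still the highest, with overlapping libraries. Exon length counts every annotated exon, so a gene with long alternative exons comes out lower on this scale.

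Both accessory genes were called in control (100% of 2, against 5.12% of all genes and 14.7% of those of at least 10 CPM). Both were also called in the average of both genotypes (against 14.2% and 40.9%). Atp6ap1 and Atp6ap2 encode membrane proteins that help assemble the pump and accompany it to the lysosome, and Atp6ap2 is also the prorenin receptor. Atp6ap2 stood at 241, 114 and 165 CPM unlesioned and 398, 352 and 390.0 at 4dpl in control, and at 229, 170.2 and 205 unlesioned and 366, 368 and 329 at 4dpl in the mutant. For Atp6ap1 the values were 465, 244 and 290.3 against 700.1, 679.9 and 609.9 in control, and 398, 286 and 318 against 504, 549.5 and 606 in the mutant. All 6 libraries at 4dpl lay above all 6 unlesioned ones for either gene. The log2 differences were 1.13 (SE 0.27, adjusted p = 0.0328) and 0.99 (SE 0.27, adjusted p = 0.042) in control, and 0.82 (SE 0.27, adjusted p = 0.0751) and 0.73 (SE 0.27, adjusted p = 0.0953) in the mutant.

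The lysosome membrane genes had the highest median of the 6 roles in the mutant and in control. Of 8, 5 were called in control (62.5%, against 5.12% of all genes and 14.7% of those of at least 10 CPM) and 7, all but Lamp1, in the average of both genotypes (87.5%, against 14.2% and 40.9%), with a median log2 difference of 1.21 in control and 1.05 in the mutant. Their summed level was 1429 to 2429 CPM in control unlesioned and 4523 to 4684 in control 4dpl, and 1598 to 2340 against 4295 to 4667 in the mutant. Cd68 (chr11:69664213-69666153, minus strand), a LAMP family protein of macrophages and microglia, stood at 356, 181 and 439.9 CPM in control unlesioned and at 1423, 1486 and 1487 in control 4dpl. In the mutant it stood at 341, 154 and 285 CPM unlesioned and at 1180.5, 875 and 610.4 at 4dpl. Every 4dpl library was above every unlesioned one, and at 4dpl the mutant libraries were below the control libraries. The log2 difference after lesion was 2.17 in control (4.50-fold, SE 0.39, adjusted p = 0.0244) and 1.77 in the mutant (3.42-fold, SE 0.38, adjusted p = 0.0522).

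Cd63, a tetraspanin of late endosomes and lysosomes, stood at 435, 474 and 619 CPM in control unlesioned and 1327, 1411 and 1217 in control 4dpl, and at 364, 348 and 391 against 1022, 979.7 and 724 in the mutant. Lamp2, the receptor of chaperone-mediated autophagy in one of its splice forms, stood at 465, 182 and 308 CPM against 875, 764 and 987 in control, and at 541, 339 and 403 against 853, 864 and 695 in the mutant. Neither gene had an unlesioned library as high as its lowest 4dpl library. Their log2 differences in control were 1.37 for Cd63 (SE 0.26, adjusted p = 0.0252) and 1.46 for Lamp2 (SE 0.33, adjusted p = 0.0295), and in the mutant 1.31 (SE 0.26, adjusted p = 0.0522) and 0.91 (SE 0.33, adjusted p = 0.0872).

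Scarb2, the receptor that carries glucocerebrosidase to the lysosome, was called in control with a log2 difference of 1.05 (SE 0.27, adjusted p = 0.0364) and had 1.02 in the mutant (SE 0.27, adjusted p = 0.0556). The calcium channel Mcoln2 was lower in level, at 0.85 to 3.21 CPM in the 6 unlesioned libraries, 7.83 to 9.0 in control 4dpl, and 8.34, 6.25 and 2.64 in mutant 4dpl, of which the last lay below the highest unlesioned value. Its log2 difference was 1.98 in control (SE 0.48, adjusted p = 0.0341) and 1.82 in the mutant (SE 0.48, adjusted p = 0.0557). The related channel Mcoln1, whose loss causes the storage disease mucolipidosis, had 0.83 (adjusted p = 0.0715) and 0.89 (adjusted p = 0.0737) and was called in the average of both genotypes (0.86, adjusted p = 0.00779). Tmem192, a lysosomal membrane protein of little known function, had 0.39 in control and 0.79 in the mutant.

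Of the 3 transcription factors and their regulator, the lysosomal GTPase-activating protein Flcn, only Flcn was called in control (25% of the 4, against 14.7% of genes of at least 10 CPM), and all but Tfeb in the average of both genotypes (75%, against 40.9%). Flcn stood at 118, 60.4 and 92.7 CPM unlesioned and 164, 185 and 194 at 4dpl in control, and at 126, 65.5 and 115 against 167, 152 and 205 in the mutant. No 4dpl library was as low as an unlesioned one, with log2 differences of 1.0 in control (SE 0.29, adjusted p = 0.0455) and 0.77 in the mutant (SE 0.29, adjusted p = 0.0967). Tfe3 stood at 129, 68.95 and 64.6 CPM unlesioned and 135, 152 and 154 at 4dpl in control, and at 107, 88.9 and 84.9 against 153, 142 and 135 in the mutant. All 4dpl libraries lay above all unlesioned ones, the nearest being control unlesioned replicate 1 at 129 CPM, and the log2 differences were 0.75 (SE 0.26, adjusted p = 0.0709) and 0.62 (SE 0.26, adjusted p = 0.12).

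Mitf was the lowest of the 3 factors per kilobase in every group, at 13.8 to 21.8 CPM in control unlesioned and 27.6 to 30.0 in control 4dpl, and at 8.90 to 19.1 and 18.4 to 35.3 in the mutant. Its log2 difference was 0.66 in control (SE 0.30, adjusted p = 0.137) and 0.92 in the mutant (SE 0.30, adjusted p = 0.0751), and the average of both was called for Mitf (0.79, adjusted p = 0.0125) and Tfe3 (0.68, adjusted p = 0.0124). Tfeb, the family member best known as the driver of lysosomal genes, differed least in control, at 51.9 to 93.4 CPM unlesioned and 70.6 to 82.5 at 4dpl (log2 difference 0.11, SE 0.25, adjusted p = 0.771), with 0.56 in the mutant (SE 0.25, adjusted p = 0.139). As a share of the summed level per kilobase of Tfeb, Tfe3, Mitf and Tfec, Tfe3 had 33.5% to 38.9% in control unlesioned and 41.9% to 48.3% in control 4dpl, and Tfeb had 44.4% to 52.1% and 36.3% to 39.9%. In the mutant the shares of either gene overlapped between unlesioned and 4dpl.

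Of the 5 Ragulator genes, which encode the pentameric scaffold that holds the Rag GTPases and mTORC1 on the lysosome, 1 was called in control (20%, against 14.7% of genes of at least 10 CPM) and 3 in the average of both genotypes (60%, against 40.9%). Lamtor3 stood at 43.3, 27.3 and 30.8 CPM unlesioned and 75.3, 65.5 and 60.1 at 4dpl in control, and at 34.95, 37.05 and 32.0 against 56.6, 64.5 and 42.5 in the mutant. The groups did not overlap within a genotype, with log2 differences of 0.99 in control (SE 0.23, adjusted p = 0.0308) and 0.65 in the mutant (SE 0.23, adjusted p = 0.0837). Lamtor1, the subunit that anchors the complex in the membrane, and Lamtor5 had log2 differences of 0.51 each in control (adjusted p = 0.103 and 0.0952) and 0.63 and 0.69 in the mutant (adjusted p = 0.0737 and 0.0613), and were called in the average of both genotypes. Of the 3215 exon bases of Lamtor1, 600 overlap Lrrc51 on the opposite strand, whose counts came to at most 11.4% of those of Lamtor1 in any library. Lamtor2, the binding partner of Lamtor3, had log2 differences of 0.30 in control and 0.53 in the mutant.

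Lamtor4 was the exception, with 86.5 to 112 CPM in control unlesioned, 76.3 to 100.1 in control 4dpl, 50.1 to 99.5 in mutant unlesioned and 65.1 to 114 in mutant 4dpl. Its log2 difference was -0.18 in control (SE 0.28) and 0.20 in the mutant (SE 0.28), and per kilobase it was below Lamtor5 and above Lamtor1 in mean in every group.

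**Figure D4:**
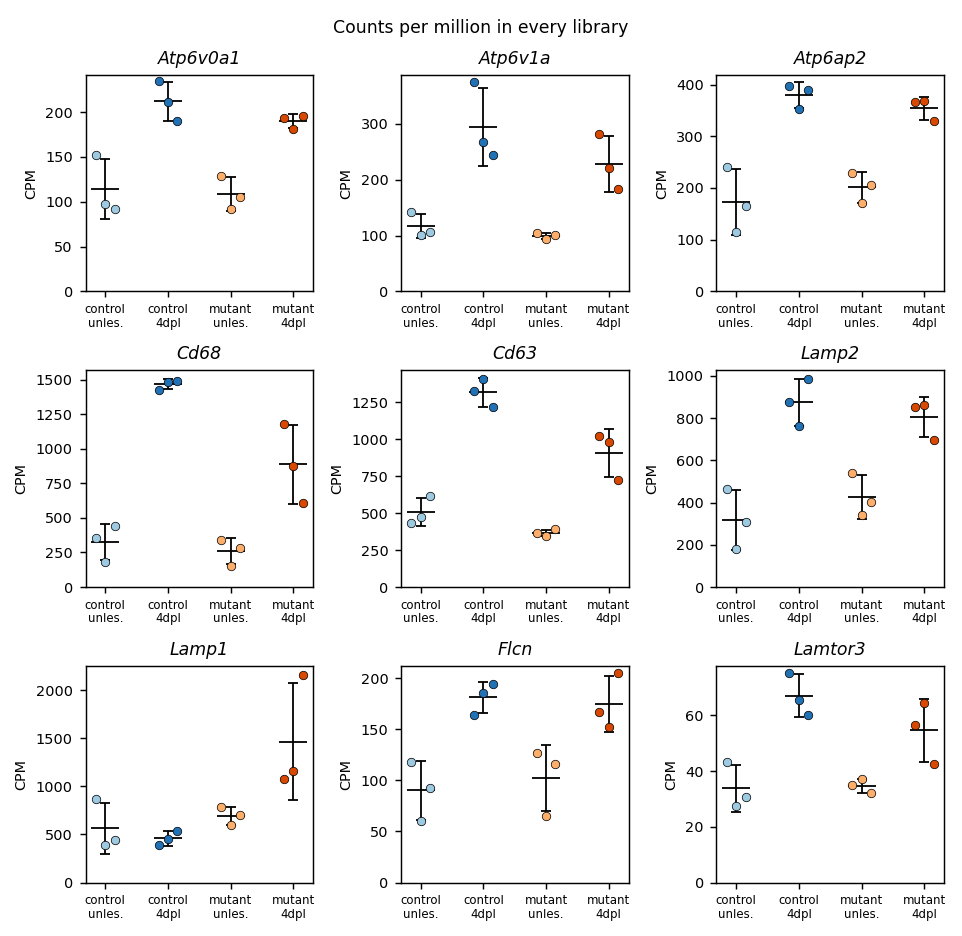
CPM (vertical axis, from 0) in the 3 libraries of each group for 9 members, with a horizontal line at the mean and bars of 1 SD. Libraries at 4dpl lie above the unlesioned ones of the same genotype in all panels except Lamp1 in control, where 388 to 535 CPM at 4dpl fall within 386 to 866 unlesioned.

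Isoform genes outside the 35 were looked at beside their relatives. Tcirg1, the subunit a isoform (a3) of osteoclasts and macrophages, had 140.15 to 209.5 CPM in control unlesioned and 304 to 414 in control 4dpl (log2 difference 1.08, SE 0.25, adjusted p = 0.031), and 112 to 156 and 199 to 294 in the mutant (0.86, SE 0.25, adjusted p = 0.0626). Per kilobase it made up 44.6% to 62.6% of the subunit a genes in the 12 libraries, above Atp6v0a1 at 21.8% to 30.0%. Atp6v0d2, the subunit d isoform of osteoclasts and macrophages, stood at 6.48, 1.23 and 9.18 CPM in control unlesioned and 69.3, 73.6 and 66.7 in control 4dpl, and at 4.61, 0.62 and 5.46 against 34.2, 33.7 and 15.6 in the mutant. The 4dpl libraries were above the unlesioned ones throughout, with log2 differences of 3.63 in control (SE 0.72, adjusted p = 0.0256) and 2.97 in the mutant (SE 0.70, adjusted p = 0.0538). Its share of the subunit d genes per kilobase was 0.708% to 5.55% in control unlesioned and 19.4% to 22.7% in control 4dpl, and 0.383% to 3.66% and 6.76% to 13.3% in the mutant.

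The remaining isoforms, known from kidney, epididymis, testis or other specialised cells, were near the limit of detection. Atp6v0a4 had 0.79 to 1.76 CPM in control unlesioned and 0.03 to 0.39 in control 4dpl, and was called lower in control. Atp6v1e2 had 5 to 40 counts per control unlesioned library and 0, 0 and 2 counts at 4dpl, and was also called lower in control, although the fitted size of such a difference depends on the prior count. Atp6v1b1 and Atp6v1c2 stayed at or below 1.78 CPM in all libraries and were not called in any comparison, and Atp6v1g3 did not pass the filter on low counts.

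Other genes of the lysosome were counted from lists set by function, to be read against the 14.7% of genes of at least 10 CPM called higher in control and the 40.9% in the average, with a median log2 difference of 0.40 in control. Among 10 V-ATPase assembly genes, 2 were called higher in control, Vma21 (log2 difference 0.97) and Tmem9 (0.82), and 5 in the average of both genotypes. These were 20% and 50% of the list, whose median in control was 0.39, and Tmem199 had 0.75 in control and 0.82 in the mutant. Among 33 other lysosome membrane genes, 14 were called higher in control (42.4%) and 19 in the average (57.6%), none lower, with a median log2 difference of 0.68 in control and 0.74 in the mutant. Of these, Slc17a5, the sialic acid exporter, had log2 differences of 1.41 in control and 1.05 in the mutant, the glycoprotein Glmp had 1.31 and 1.11, and its partner, the transporter Mfsd1, had 1.67 and 1.11. Among 33 genes of mTORC1 signalling at the lysosome, 6 were called higher in control (18.2%) and 20 in the average (60.6%), none lower, with a median log2 difference of 0.54 in control, and with C9orf72 at 1.35 and 0.90, the Flcn partner Fnip2 at 1.62 and 1.45, and the leucine sensor family gene Sesn1 at 1.24 and 0.93. In the mutant alone 0 genes of these 3 lists were called, as for the members.

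The second question was whether the genotypes differ. No member was called in unlesioned tissue (0 of 35, and 0% of all genes) or at 4dpl (0 of 35, and 0% of all genes). The median log2 difference of mutant minus control over the members was -0.23 unlesioned and -0.19 at 4dpl, where the medians of all genes were 0.02 and 0.05 and those of the genes of at least 10 CPM were -0.05 and 0.01. An unadjusted p under 0.05 was found for 4 members in unlesioned tissue, all lower in the mutant, and for 5.22% of all genes. Among the 9673 genes of at least 10 CPM it was found for 928, of which 794 were lower in the mutant. DESeq2 called 0 members in unlesioned tissue. At 4dpl a p under 0.05 was found for 1 member, Lamp1, and for 6.92% of all genes, among them 798 of at least 10 CPM. The mutant libraries at 4dpl lay below all control ones for 2 V0, 4 V1, 1 accessory and 2 lysosome membrane genes. They lay above for 1 member, Lamp1. Of all genes, 5.44% lay below in this way and 7.34% above.

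The 4 members in unlesioned tissue were Atp6v1f, Atp6v0b, Lamtor2 and Tmem192. Atp6v1f, a subunit of the V1 rotor shaft, stood at 155, 148 and 146 CPM in control and 87.6, 107 and 101 in the mutant, without overlap (log2 difference -0.61, SE 0.20, adjusted p = 0.734). At 4dpl it stood at 186, 222 and 170.2 CPM in control and 158, 168 and 151 in the mutant, still without overlap (-0.27, SE 0.20, adjusted p = 0.881). Atp6v0b, with the values given above, differed by -0.56 (SE 0.22, adjusted p = 0.845) and by -0.20 at 4dpl. Lamtor2 stood at 64.5, 80.9 and 64.8 CPM in control and 41.9, 59.3 and 46.5 in the mutant (-0.51, SE 0.21, adjusted p = 0.884), and Tmem192 at 38.45, 28.8 and 27.9 against 23.6, 21.2 and 24.8 (-0.45, SE 0.21, adjusted p = 0.947). In none of these genes did the unlesioned groups overlap, as for Atp6v0c, Cd63 and Lamtor5, and in none was the difference called. Atp6v1g2 also did not overlap but was higher in the mutant, at 6.63 to 9.54 CPM against 4.48 to 6.55 (0.54, SE 0.28, adjusted p = 1). Of all genes, 6.28% lay lower in the mutant without overlap and 4.09% higher.

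Lamp1 was the only lysosome membrane member lower at 4dpl in control, a direction that turned under some settings (0.18 without control unlesioned replicate 1, 0.09 with limma-voom). LAMP1 is among the most abundant proteins of the lysosomal membrane, and its gene (chr8:13159161-13175338, plus strand) stood at 866, 386 and 439 CPM in control unlesioned and at 388, 450.4 and 535 in control 4dpl, with overlap. In the mutant it stood at 782, 598 and 699 CPM unlesioned and at 1072, 1161 and 2162 at 4dpl, without overlap. The log2 difference after lesion was -0.30 in control (SE 0.36, adjusted p = 0.558) and 1.08 in the mutant (SE 0.36, adjusted p = 0.0767). At 4dpl the mutant libraries were above all control libraries, by 1.68 on the log2 scale (3.20-fold, SE 0.37), at an edgeR adjusted p of 0.203. DESeq2 called this difference (1.63, adjusted p = 0.00197), as did limma-voom with sample weights (1.44, adjusted p = 0.0411) and the edgeR test without control unlesioned replicate 1 (1.68, adjusted p = 0.0414).

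The highest of these values came from mutant 4dpl replicate 3, the library with the oligodendrocyte marker sum of 73084 CPM. Without it, the difference between genotypes at 4dpl was 1.28 (adjusted p = 0.71) and that after lesion in the mutant 0.71 (adjusted p = 0.244). The other mutant 4dpl libraries, at 1072 and 1161 CPM of Lamp1, had oligodendrocyte sums of 27200 and 30681 CPM, inside the 24973 to 35860 of control 4dpl, where Lamp1 was at 388 to 535. Whether oligodendrocyte content has a part in the difference of Lamp1 between genotypes was not tested. The change after lesion differed between genotypes by 1.38 (SE 0.51, adjusted p = 1), and by 0.99 without mutant 4dpl replicate 3. The difference was 0.93 without control unlesioned replicate 1, in which Lamp1 was highest among controls, and 0.53 without both libraries. Of the 2675 exon bases of Lamp1, 249 overlap Grtp1 on the opposite strand, whose counts came to at most 1.11% of those of Lamp1 in any library. In the same comparison at 4dpl, Lamp2 differed by -0.12 (SE 0.32) and Cd68 by -0.72 (SE 0.37, adjusted p = 0.783).

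Markers of several cell types moved with the lesion, and their part in the differences above was not tested. The summed level of 12 microglial markers was 3107 to 6065 CPM in control unlesioned and 10005 to 16593 in control 4dpl, and 3376 to 10368 and 9902 to 15023 in the mutant. In control 4 of these markers were called higher at 4dpl (33.3%, against 14.7% of genes of at least 10 CPM). In the average of both genotypes 10 were called higher (83.3%, against 40.9%), with none at 0 in any library. The 12 oligodendrocyte markers summed to 17721 to 21953 CPM in control unlesioned and 24973 to 35860 in control 4dpl, and to 15133 to 30317 and 27200 to 73084 in the mutant. Of these markers, 1 was called higher in control (8.33%, against 14.7%) and 2 in the average (16.7%, against 40.9%). The 12 neutrophil markers went the other way in control, from 48948 to 105996 CPM down to 32224 to 40676, and overlapped in the mutant at 33594 to 130047 and 24072 to 118570. The 11 erythroid markers ranged from 34368 to 100283 in control unlesioned, from 12259 to 41163 in control 4dpl, and from 18440 to 44597 over the mutant libraries.

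**Figure D5:**
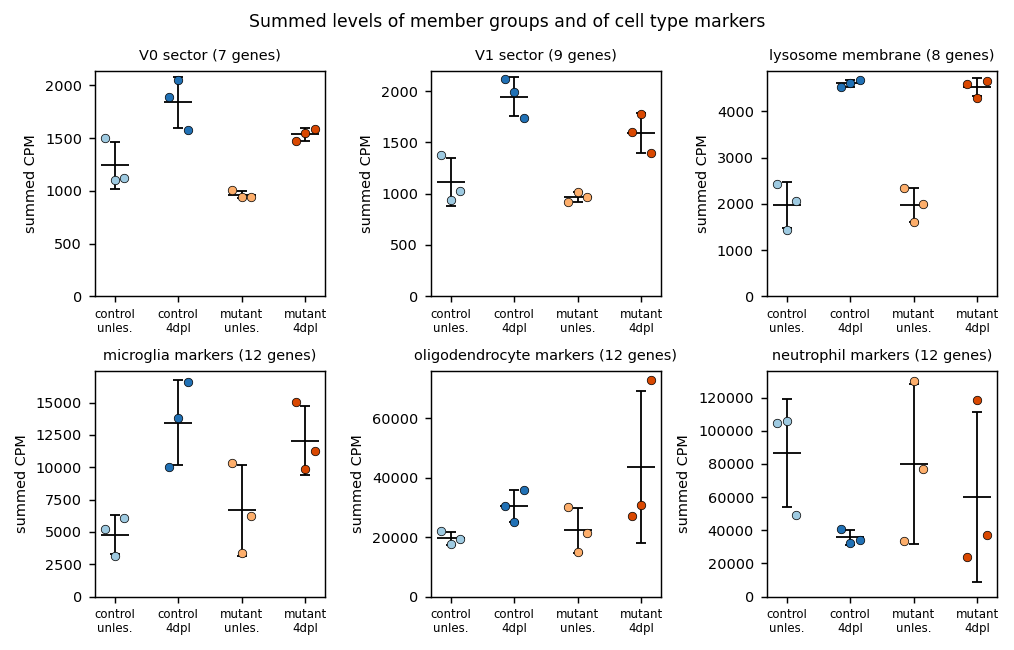
Summed CPM (vertical axis, from 0) per library of the V0, V1 and lysosome membrane genes and of the microglial, oligodendrocyte and neutrophil marker lists, with the mean and 1 SD of each group. The lysosome membrane sums at 4dpl, 4295 to 4684, lie above the unlesioned sums, 1429 to 2429, while neutrophil sums overlap between the mutant groups.

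Of the less abundant lists, the border and blood macrophage markers summed to 633 to 2773 CPM in the 6 unlesioned libraries and 772 to 2227 at 4dpl. Much of this sum was Ly6c2, a gene of blood monocytes, at 311 to 1568 CPM (log2 difference -0.92 in the average of both genotypes, SE 0.38, not called). Of the 12 genes in that list, 5 were called higher in the average (41.7%, against 40.9% of genes of at least 10 CPM) and 1 lower. The median log2 difference of the list was 1.02, where that of genes of at least 10 CPM was 0.47. The genes called higher included Ms4a7 (3.12), Arg1 (2.94) and Pf4 (2.89). Their part in the differences of the lysosomal genes was not tested. Astrocyte markers summed to 401 to 529 CPM unlesioned and 541 to 1202 at 4dpl, markers of oligodendrocyte progenitors to 289 to 794 and 547 to 1329, and Schwann cell markers, which include genes also used by oligodendrocytes, to 3997 to 6916 and 6772 to 18387. The highest sum of each of these lists came from mutant 4dpl replicate 3, the library with the high oligodendrocyte sum. Olig1 and Sox10 had the most counts of the progenitor list in that library, 34676 and 21750. The neuronal, endothelial and mural, fibroblast, lymphocyte and ependymal lists summed to at most 249, 83, 227, 838 and 359 CPM in any library.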

How the data were processed

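Gene-level read counts were deposited by the authors, one table per library, as raw counts without normalization. Per the study's methods, paired-end reads were aligned to mm10 with BWA and counted with featureCounts against Ensembl genes, whereas the submitters' processing notes name STAR and DESeq2. Which of these made the files, and whether counting used strand, was not given in the sources used here. Mitochondrial genes held 0 counts in all libraries.

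Groups were taken from the GEO labels. Genes with low counts were removed with filterByExpr, leaving 31109, and all 12 libraries were fitted with edgeR 4.0.16 (glmQLFit and glmQLFTest, TMM scaling, R 4.3.3) with 1 coefficient per group. A gene was called at p under 0.01 and Benjamini-Hochberg adjusted p under 0.05. The contrasts were 4dpl against unlesioned in each genotype and averaged over both, mutant against control in each tissue, and the interaction. Alternatives used DESeq2 1.42.0, limma 3.58.1 (voom with sample weights), other filters, scaling and thresholds, a replicate block, and libraries left out.

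The members and lists were chosen with earlier results of these data known. The members singled out were the 3 of each role with the smallest p after lesion in control. Members with p under 0.05 between genotypes or in the interaction were added. The other isoform genes, and the 3 genes of smallest p in each further list, were singled out too. Some of these, such as Mitf, are given as ranges. Lamtor1, Lamtor5 and the genes of the further lists are given without CPM values. The edgeR script was tested on simulated data with known changes. Promoters came from RefSeq (GRCm38.p6), and 6 members had no entry.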

Additional observations from a re-analysis of the deposited data

How the results depend on the processing

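In all, 23 alternative settings were tried, one of them, leaving out both control unlesioned replicate 1 and mutant 4dpl replicate 3, chosen after seeing the data. The count of members called after lesion in control, 14, became 25 with limma-voom, 7 with only the groups compared, 23 at an adjusted p under 0.10 and 23 without both of those libraries, and lay between 0 and 23 with single libraries left out. The count in the mutant, 0, became 14 with DESeq2, 28 with limma-voom, 12 with the newer quasi-likelihood method of edgeR, 5 with no filter on low counts, 25 at an adjusted p under 0.10 and 6 without both libraries, and lay between 0 and 24 with single libraries left out. The count in the average of both genotypes, 26, became 16 when 10 counts were required in every library, and lay between 25 and 30 with single libraries left out. Between genotypes at 4dpl the count, 0, became 1 with DESeq2 and 1 with limma-voom, Lamp1 in each case, and lay between 0 and 1 with single libraries left out. In unlesioned tissue and in the interaction it was 0 in every setting run. The causes of these moves were not tested.

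The log2 difference of Lamp1 after lesion in control, -0.30, turned to 0.09 with limma-voom, 0.02 with the replicate block by file number, 0.18 without both libraries and lay between -0.50 and 0.18 with single libraries left out. When 10 counts were required in every library, 4 members turned below 0 in control, Atp6v0b (0.26 to -0.01), Atp6v0e2 (0.14 to -0.14), Tfeb (0.11 to -0.14) and Atp6v1e1 (0.26 to just under 0), and Atp6v1g2 (-0.20) and Lamtor4 (-0.14) did so in the mutant. These last also did with only the groups compared (-0.10 and -0.04). Lamtor4, at 0.01 in the average, had no stable sign there. RLE scaling moved the median of all genes by -0.14 after lesion in the mutant and by -0.10 in the average, and left 34 of 35 members above 0 in the mutant. A replicate block by the number in the labels gave 18 calls in control, 0 in the mutant and 27 in the average, and a replicate block by the number in the file names gave 6, 0 and 21. Deviations of libraries with the same label number correlated at -0.07 to 0.19 (6 pairs), and those with the same file number at -0.09 to -0.02 (4 pairs). So few pairs, from groups of 3 libraries, cannot decide whether the numbers pair the samples.

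Which libraries share a mouse was not given, so no fit by animal was made. A member that was not called is not shown to be equal between groups of 3 libraries.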
